A study of Zea mays with 3 samples.

Results

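The interval of maize chromosome 1 described here ran from 130 to 147 Mb on B73 RefGen_v4. It was cut into bins of 10 kb, which gave 1700 of the 210639 bins on chromosomes 1 to 10, or 0.807% of them. The interval was set around a narrow CENH3 site in 120 kb ending at 137.12 Mb, which the B73 library showed, and a broad CENH3 domain centred at 141.405 Mb, which the F3-152 library showed. The reads that chose it are therefore given below as a description, without a test. Chromatin from young maize (Zea mays) leaves was immunoprecipitated with antibodies against CENH3 and sequenced as paired ends in 3 libraries, 1 each of F3-152, F3-600 and B73. B73 is a maize inbred line and the labels name it as the control. For F3-152 and F3-600 they give the line name alone, and the title of the series speaks of irradiated material. Neither the dose, the parents nor the number of plants per library was given in the sources used here. No input library was used here, so a higher copy number of a sequence in a line was not tested. Each library came from its own sequencing instrument (3 distinct instruments), so line and sequencing run cannot be told apart. No line had a replicate, so nothing was tested between lines.

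CENH3 is the histone H3 variant that takes the place of H3 in part of the nucleosomes of a centromere, and the kinetochore is built on these nucleosomes. Maize centromeres hold the satellite repeat CentC and centromeric retrotransposons, yet CENH3 can also settle on sequence without them. Micrococcal nuclease, which was used to prepare the chromatin, cuts the linker between nucleosomes, so that fragments of nucleosome size remain. Where only reads that map to a single place are kept, as the study's methods state for B73, repeats that match several places can appear empty in such data.

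Reads were assigned to bins by their midpoint. Each library was scaled to the median of its bins with at least 1 read on chromosomes 1 to 10, which was 90 reads in F3-152, 64 in F3-600 and 32 in B73. A level of 1 is thus the library's own median bin, and a bin at 10 or more was called enriched. The libraries held 21026602 reads from 10774676 fragments in F3-152, 14454963 reads from 7461952 fragments in F3-600 and 7716211 reads from 4476261 fragments in B73. Intervals are exact, at 95%, over fragments, and cover counting error only.

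F3-152 was the library with the most CENH3 reads in this interval relative to its size. The interval took 2.48% of its fragments on chromosomes 1 to 10 (exact binomial interval 2.47% to 2.49%), against 1.55% in F3-600 (1.54% to 1.56%) and 1.35% in B73 (1.34% to 1.37%). The broad domain alone held 43.4% of the interval's reads in F3-152, against 6.44% in F3-600 and 5.83% in B73. The narrow site held 6.55% of them in F3-152, against 19.2% in F3-600 and 19.7% in B73. The other 1549 bins of the interval were nearer the genome's level, with a median of 1.83 in F3-152, 1.66 in F3-600 and 1.28 in B73.

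Enriched bins numbered 110 in F3-152, against 12 in F3-600 and 12 in B73. Over all bins of chromosomes 1 to 10, 0.306% were enriched in F3-152, 0.233% in F3-600 and 0.348% in B73, while the shares in the interval were 6.47%, 0.706% and 0.706% in the same order. The interval was chosen on these values, so nothing is read from the difference. Of the 110 bins of F3-152, 99 lay in the domain, where neither F3-600 nor B73 had an enriched bin. Outside the domain the libraries shared most of their enriched bins, since 9 were enriched in all 3, which is 81.8% of the 11 in F3-152, 75% of the 12 in F3-600 and 75% of the 12 in B73. Genome-wide, 254 bins, or 0.121%, were enriched in all 3 libraries, out of 644 enriched in F3-152, 491 in F3-600 and 734 in B73. Bins were also compared in pairs of lines, where a ratio of scaled levels was formed if at least 1 of the lines had more than 3 reads, with counts below 3 set to 3. F3-152 was at least 4-fold above F3-600 in 133 of 1648 bins of the interval and at least 4-fold below it in 3, against 3.12% and 2.42% of all bins of chromosomes 1 to 10. F3-152 was at least 4-fold above B73 in 152 of 1648 bins and below it in 3, against 1.16% and 14.4% of all bins. F3-600 was at least 4-fold above B73 in 15 of 1647 bins and below it in 2, against 1.34% and 15.6% of all bins. The high counts of F3-152 come mostly from the domain that the interval was chosen for, and nothing is read from them.

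At the limits of the interval all levels were low, with 0.422, 0.828 and 0.781 in the first bin and 0.533, 0.766 and 0.375 in the bin before it (F3-152, F3-600 and B73). The last bin was at 1.16, 1.69 and 1.63 and the bin after it at 0.833, 1.67 and 1.78 in the same order.

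**Figure D1:**
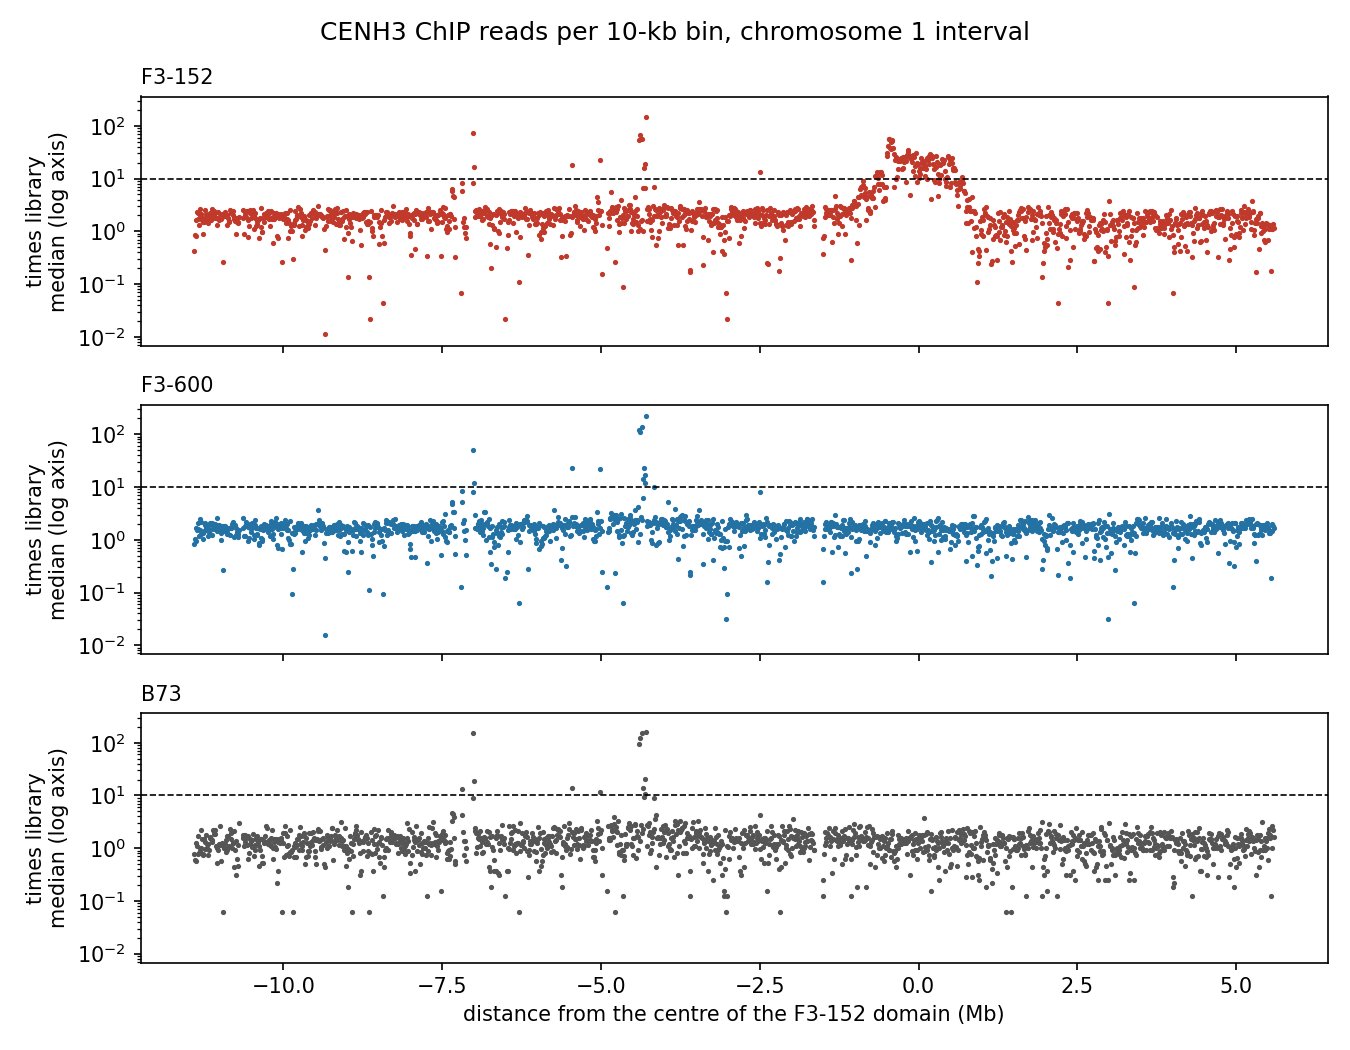
Reads per 10-kb bin over the chromosome 1 interval, in times the median of each library (log axis), against the distance from the centre of the F3-152 domain in Mb, with 1 panel each for F3-152, F3-600 and B73. Points are bins, bins with 0 reads are left out, and the dashed line marks the threshold of 10. The broad domain at distance 0 stands in the F3-152 panel, and the narrow site about 4 Mb to its left stands in each of the 3 panels.

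In a longer view of the chromosome, the interval lay at the upper end of each library's range. Over windows of 5 Mb, the windows that start at 130, 135, 140 and 145 Mb had medians of 1.87, 1.99, 2.11 and 1.41 in F3-152. In F3-600 they were 1.63, 1.80, 1.63 and 1.59, and in B73 1.25, 1.38, 1.25 and 1.19. The other 58 windows of the chromosome had medians from 0.433 to 1.81 in F3-152, from 0.328 to 1.59 in F3-600 and from 0.844 to 1.16 in B73. In B73 these 4 windows were thus above all of the others on the chromosome.

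The domain of F3-152 ran from 140.71 to 142.1 Mb, a span of 1.39 Mb or 139 bins, of which 99 were enriched. It held 225888 reads from 114612 fragments in F3-152 (exact Poisson interval 113949 to 115277), against 14300 reads from 7276 fragments in F3-600 (7110 to 7445) and 5593 reads from 3425 fragments in B73 (3311 to 3542). The mean level over its 139 bins was 18.1 in F3-152, against 1.61 in F3-600 and 1.26 in B73. Scaled over fragments, F3-152 was 11.3 times F3-600 (interval 11 to 11.6) and 12.4 times B73 (12 to 12.8). Over the same stretch F3-600 was 1.09 times B73 (1.05 to 1.14) by fragments and 1.28 times by reads.

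The 2 other libraries therefore ran along the domain without a step. Over the 139 bins, levels reached at most 2.59 in F3-600 and 3.69 in B73, while 128 bins were at 5 or more in F3-152. F3-152 was at least 4-fold above F3-600 in 129 of the 138 bins with a ratio and at least 4-fold above B73 in 132 of 138. F3-600 was at least 4-fold above B73 in 1 of 138. The domain was called on F3-152, so its counts describe the call.

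Within the domain, the read level of F3-152 was not even, and 4 stretches could be told apart by eye, with limits chosen after the profile was seen. A left shoulder from 140400001 to 140900000, which begins outside the domain, had a median level of 4.69 in F3-152, against 1.63 in F3-600 and 1.38 in B73. A high block followed from 140900001 to 141020000, where all 12 bins of F3-152 lay between 26.7 and 57.5 with a median of 39.8, against medians of 1.72 in F3-600 and 1.19 in B73. This block of 120 kb held 20.3% of the domain's F3-152 reads. The plateau from 141020001 to 141980000 had a median of 19.4 in F3-152 with 79 of 96 bins enriched, against 1.63 in F3-600 and 1.25 in B73. A right shoulder from 141980001 to 142140000 had a median of 7.20 in F3-152, against 1.66 in F3-600 and 1.61 in B73.

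**Figure D2:**
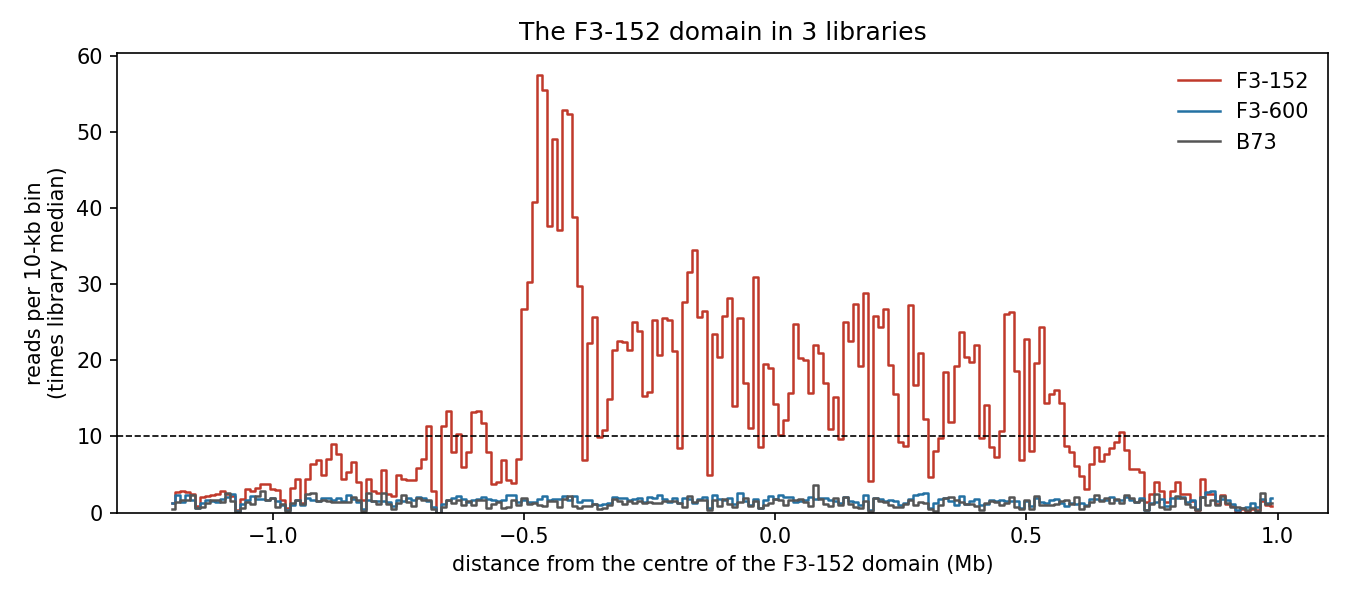
Reads per 10-kb bin across the domain, in times the median of each library, against the distance from the domain's centre in Mb, for F3-152 (red), F3-600 (blue) and B73 (grey). The dashed line marks the threshold of 10. F3-152 climbs through a left shoulder to a high block that reaches 57.5, runs on as a plateau with a median of 19.4 and falls through a short right shoulder, while F3-600 stays at or below 2.59 and B73 at or below 3.69 in the domain.

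The 5 highest bins of the domain all lay in the high block. The bin starting at 140930001 had 5176 reads in F3-152, against 115 in F3-600 and 30 in B73, or levels of 57.5, 1.80 and 0.938. The bins starting at 140940001, 140980001, 140990001 and 140960001 followed in F3-152 with levels of 55.5, 52.9, 52.3 and 49.1. In these 4 bins F3-600 ranged from 1.63 to 2.17 and B73 from 0.906 to 2.16. None of the 5 thus stood out in either of the other libraries. Without the 120 kb of the high block, the mean level of the remaining bins was 15.8 in F3-152, 1.59 in F3-600 and 1.26 in B73.

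Bins above and below the threshold alternated along the domain. The 99 enriched bins of F3-152 fell into 19 runs, of which the longest were 150 kb each, from 141060001 to 141210000 and from 141380001 to 141530000. The 40 bins that were not enriched fell into 18 runs with a median length of 10 kb. The longest of these, 110 kb from 141980001 to 142090000, lay in the right shoulder, and the next, 70 kb from 140830001 to 140900000, stood directly before the high block. The bins between the runs still carried many CENH3 reads in F3-152, where their median was 7.46, against 1.32 in F3-600 and 1.0 in B73. Only 1 bin, from 140730001 to 140740000, was empty, and it was empty in all 3 libraries.

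The same 40 bins also had the lower median in the libraries without the domain. In F3-600 their median of 1.32 stood against 1.73 in the 99 enriched bins, and in B73 it was 1.0 against 1.34. The level of F3-152 followed that of the other libraries only weakly over the 138 bins with reads, with a Spearman correlation of 0.34 to F3-600 and 0.28 to B73 and a Pearson correlation of 0.33 and 0.24. The values for F3-600 with B73, which both lack the domain, were little higher at 0.38 (Spearman) and 0.42 (Pearson). Over the 99 enriched bins alone the correlations of F3-152 to F3-600 and to B73 were 0.12 and 0.10 (Spearman) and 0.13 and 0.066 (Pearson). Bins are neighbours on 1 chromosome and share the reference and its repeats, so the correlations are a description. The coefficient of variation of the 99 enriched bins was 43.7% before and 43.8% after division by F3-600. The domain held only 7276 fragments in F3-600 and 3425 in B73 over its 139 bins. Counting noise at this depth lowers a correlation and adds variation on division. Neither value therefore shows that the unevenness of F3-152 is unrelated to the other libraries.

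At a finer scale, reads of F3-152 were spread over the domain rather than stacked at a few positions. Of its 1390 windows of 1 kb, 979 were at 10 or more in F3-152, against 0 in F3-600 and 1 in B73, and 40 were empty in F3-152, against 63 in F3-600 and 270 in B73. The domain held 225888 reads in F3-152, 14300 in F3-600 and 5593 in B73, so the counts of empty windows were not compared between libraries. The window with the most F3-152 reads, from 140948001 to 140949000, held 659 of them, or 0.292% of the domain. In the high block 119 of 120 windows of 1 kb were at 10 or more in F3-152, against 0 in F3-600 and 0 in B73. Within the enriched bins, the top window of 1 kb held a median of 14.0% of the bin's F3-152 reads (range 11.5% to 29.7%).

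The edges of the domain were gradual at the outside and sharp at the high block. The bin before the first enriched bin had a level of 7.06 in F3-152, against 1.97 in F3-600 and 1.66 in B73, and the first had 11.3, 1.48 and 1.66 in the same order. The last enriched bin had 10.6, 1.70 and 1.31, and the bin after it 8.17, 1.98 and 2.34. Counted outward in windows of 50 kb, F3-152 stayed at 2 times F3-600 or more from 140400001 to 142150000, which is 310 kb to the left and 50 kb to the right of the domain. At 1.5 times or more the stretch ran from 140350001 to 142200000, or 1.85 Mb. At the left end of the high block the change was abrupt, since the window of 100 kb starting at 140900001 had a median of 44.9 in F3-152 and the window just before it 7.0.

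Among the domains of F3-152 with at least 10 enriched bins on chromosomes 1 to 10, that on chromosome 1 took the third place of 8 by enriched bins, by reads in them, by median level and by span. Its median over enriched bins was 21.2, within the range of 14.4 to 22.3 over the 8 domains. The 2 with the most reads in enriched bins were the domain on chromosome 5 from 104310001 to 106420000, with 123 enriched bins at a median of 21.5, and that on chromosome 10 from 51560001 to 52780000, with 97 enriched bins at 22.3. These were also high in the other libraries, with medians in the same bins of 14.9 and 23.3 in F3-600 and 26.4 and 27.6 in B73 (chromosomes 5 and 10), against 1.73 in F3-600 and 1.34 in B73 for the domain on chromosome 1. The domain on chromosome 1 was not alone in this. The 33 enriched bins of F3-152 on chromosome 10 from 11840001 to 12770000 had a median of 19.0 in F3-152, against 1.30 in F3-600 and 1.06 in B73. On chromosome 1 no domain of F3-600 or B73 held more than 8 enriched bins, and the largest of each was the narrow site.

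The narrow site, the 120 kb that end at 137.12 Mb, was high in all 3 libraries, but its level in F3-152 was the lowest. It held 34069 reads from 17882 fragments in F3-152 (exact Poisson interval 17621 to 18146), against 42689 reads from 23245 fragments in F3-600 (22947 to 23546) and 18910 reads from 11772 fragments in B73 (11560 to 11987). The mean level over its 12 bins was 31.5 in F3-152, against 55.6 in F3-600 and 49.2 in B73. Scaled over fragments, F3-152 was at 0.552 times F3-600 (interval 0.541 to 0.563) and at 0.561 times B73 (0.548 to 0.575). F3-600 was at 1.02 times B73 (0.995 to 1.04), an interval that includes 1. By reads this ratio was 1.13, and with 1 read kept per start, end and strand it was 0.960, so its side of 1 was not settled.

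The bins of the site were very unequal, and the same ones were high in each library. The last bin, starting at 137110001, was the highest, with levels of 148 in F3-152, 220 in F3-600 and 162 in B73. The first bin had 53.0 in F3-152, 122 in F3-600 and 93.4 in B73. The bin starting at 137020001 had 68.4, 111 and 122, and the bin starting at 137050001 had 55.8, 135 and 151, in the same order. Between these 4 stood bins near the background, such as that starting at 137010001 with 1.09 in F3-152, 1.28 in F3-600 and 1.38 in B73. Of the 12 bins, 11 were lower in F3-152 than in F3-600 and 11 were lower in F3-152 than in B73. The bin starting at 137100001 was the exception against F3-600, with 19.1 in F3-152 and 16.7 in F3-600. The exception against B73 was the bin starting at 137080001, with 16.0 in F3-152 and 9.47 in B73.

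**Figure D3:**
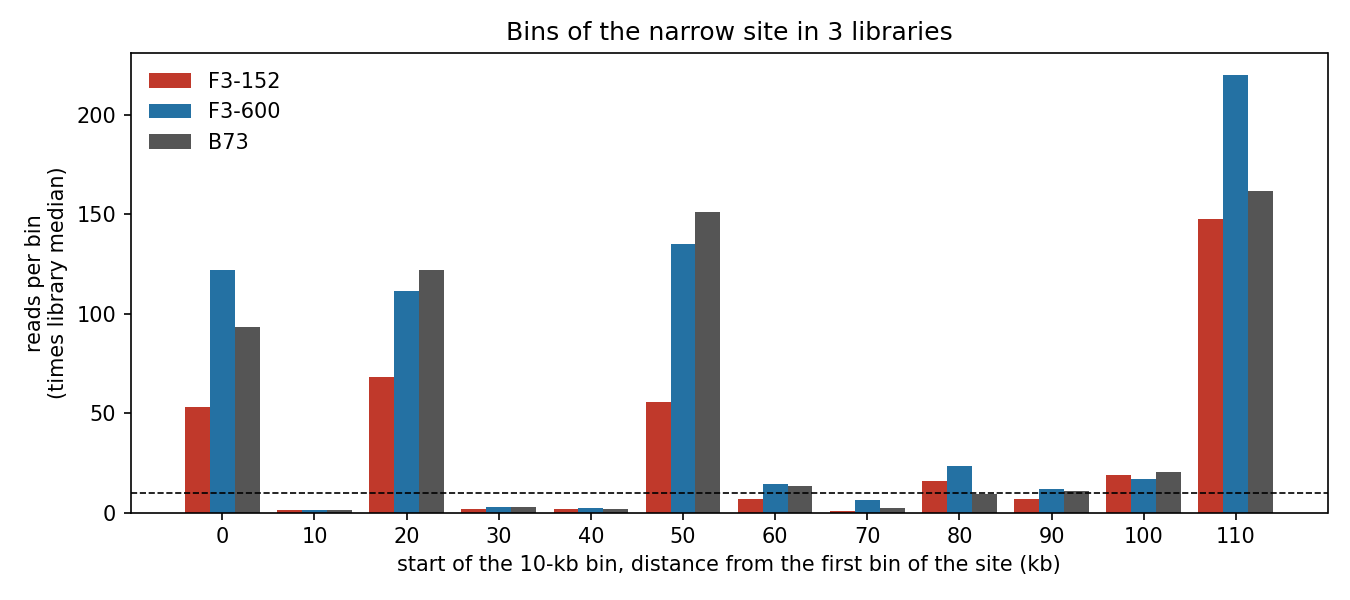
Reads in the 12 bins of 10 kb of the narrow site, in times the median of each library, against the start of the bin in kb from the first bin. Bars are F3-152 (red), F3-600 (blue) and B73 (grey), with no error bars because each line had 1 library, and the dashed line marks the threshold of 10. The same 4 bins are tallest in each library, and 3 of them are at 53.0 to 68.4 in F3-152, against 111 to 135 in F3-600 and 93.4 to 151 in B73.

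Within the site, most reads came from a few windows of 1 kb. The window from 137113001 to 137114000 held 26% of the site's reads in F3-152, 21.6% in F3-600 and 13.8% in B73, and 5 of the 120 windows held 50% of the reads in each library. The profiles over the 120 windows were alike, with Spearman correlations of 0.94 between F3-152 and F3-600, 0.86 between F3-152 and B73 and 0.89 between F3-600 and B73 (Pearson 0.97, 0.88 and 0.94). Over the 1390 windows of the domain the Spearman values for the same pairs were 0.28, 0.26 and 0.20 (Pearson 0.25, 0.16 and 0.15). These windows held only 14300 reads in F3-600 and 5593 in B73, against 42689 and 18910 in the 120 windows of the site. With so few reads per window counting noise lowers a correlation, so the domain values were not compared with those of the site. All windows share 1 reference sequence, and a rule on unique mapping was stated for B73 only. In F3-152 the domain and the site differed in how reads were laid out. The top 10% of the windows held 24.5% of the F3-152 reads in the domain and 76.1% in the site.

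Left of the site, 5 further bins were enriched in at least 1 library. The bin from 134390001 to 134400000 had levels of 72.5 in F3-152, 49.7 in F3-600 and 153 in B73, and its neighbour from 134400001 to 134410000 had 16.4, 11.8 and 18.6. In the first of these, the 4882 reads of B73 came from 4250 fragments, so most of those fragments had 1 read there. F3-152 had 6523 reads from 4163 fragments and F3-600 had 3181 from 2332. Whether repeated reads raised the level of B73 in this bin was not tested. The bin starting at 135950001 had 18.4 in F3-152, 22.9 in F3-600 and 13.8 in B73, and that starting at 136380001 had 22.3, 21.6 and 11.5. The bin starting at 134220001 passed the threshold in B73 alone, with 8.20 in F3-152, 8.38 in F3-600 and 13.3 in B73. The order of the libraries was therefore not the same from bin to bin, and the ratio of F3-152 to F3-600 ran from 0.801 to 1.46 over these 5 bins, against 0.412 to 1.14 over the 8 enriched bins of the site. Between site and domain, 1 bin was enriched, from 138900001 to 138910000, and it passed in F3-152 alone with 13.6, against 7.97 in F3-600 and 4.22 in B73. At a mapping quality of 30 or more its level in F3-152 was 8.27, below the threshold. Left of the site, the bin starting at 134390001 stayed above 10 in all 3 libraries at this quality. Each of the others there was below 10 in at least 1 library.

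These narrow bins shared their fine structure across lines. In 13 of the 14 bins that were enriched in any library outside the domain, the same window of 1 kb held the most reads in all 3 libraries, and that window held a median of 55.7% of the bin in F3-152, 50.2% in F3-600 and 52.2% in B73. In the bin starting at 137080001 it was 96.2% in F3-152, 95.7% in F3-600 and 96.4% in B73. With a median of 14.0% the enriched bins of the domain were far more even in F3-152. The 14 bins were picked for their high levels, all libraries share 1 reference, and no such count was made over other bins. The 13 of 14 is therefore a description.

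Mapping quality, which the choice of the interval did not use, set the site apart from the domain. The reads with a quality below 30 made up 51.9% of the site in F3-152, 52.9% in F3-600 and 56.2% in B73, and those at the highest value of 60 made up 4.04%, 2.64% and 2.70%. In the domain, 7.22% of the reads were below 30 and 61.6% were at 60 in F3-152, against 9.59% and 57.0% in F3-600 and 10.3% and 56.4% in B73. The flank right of the domain was close to this, with 10.4% below 30 in F3-152, 9.74% in F3-600 and 9.91% in B73. The comparison domains on chromosomes 5 and 10 had 4.93% and 7.20% below 30 in the enriched bins of F3-152. By this measure the domain was close to its surroundings in each library, and the site was not. The site was not alone in this. In the narrow enriched bins outside site and domain, the share below 30 ran from 27.8% (bin starting at 134390001, B73) to 58.4% (bin starting at 135950001, F3-600). With only reads of a quality of 30 or more, the mean level of the site was 17.3 in F3-152, 29.9 in F3-600 and 23.8 in B73, and that of the domain was 19.1, 1.66 and 1.24.

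Strand and repeated positions were checked in the same way. Plus-strand reads made up 50% of the domain in F3-152, 50.1% in F3-600 and 50.3% in B73, and 49.6%, 50.1% and 45.3% of the site. Reads that shared start, end and strand with an earlier read made up 14.6% of the domain in F3-152, against 0.888% in F3-600 and 18.0% in B73, and 51.6%, 50.7% and 48.5% of the site. Of the fragments with both mates in the interval, 0.0783% shared both ends with another in F3-152, 0.132% in F3-600 and 0.283% in B73. Both mates were present for 95.6% of the fragments in F3-152, 92.3% in F3-600 and 57.9% in B73. With 1 read kept per start, end and strand, the mean level of the domain was 15.6 in F3-152, 1.62 in F3-600 and 1.18 in B73, and that of the site was 15.4, 27.8 and 29.0. Reads that repeated an earlier one made up 11.7% of reads with both mates present and 24.7% of the others in F3-152. These shares were 11.1% and 38.8% in F3-600 and 11.2% and 74.6% in B73. Fragments with both mates rarely shared both ends, so their repeated reads can be different fragments that share 1 end. For reads without a mate this could not be judged. Whether the filter removed copies or separate fragments was not tested.

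Fragment length, likewise not used in the choice, differed between the domain and each of its flanks in F3-152. Fragments of at most 150 bp made up 37.0% of the domain in F3-152 (exact binomial interval 36.7% to 37.2%), against 28.6% left of the site, 29.3% between site and domain and 27.3% (26.8% to 27.8%) right of the domain. In F3-600 they made up 6.23% of the domain (5.67% to 6.82%) and 6.03% of the right flank (5.73% to 6.34%), and in B73 20.4% (18.7% to 22.1%) and 19.8% (18.9% to 20.8%), so that these intervals overlapped. Left of the site the share in F3-600 was 7.55% (7.28% to 7.82%), a little above its domain. Long fragments of over 260 bp were also more frequent in the F3-152 domain, at 19.2%, against 14.0% in its right flank. The median length was 160 bp in the domain of F3-152 and 169 bp in its right flank. It was 309 and 307 bp in F3-600 and 185 and 189 bp in B73 for the same 2 sections, so the libraries differed in fragment length as a whole and are not compared in it with each other.

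**Figure D4:**
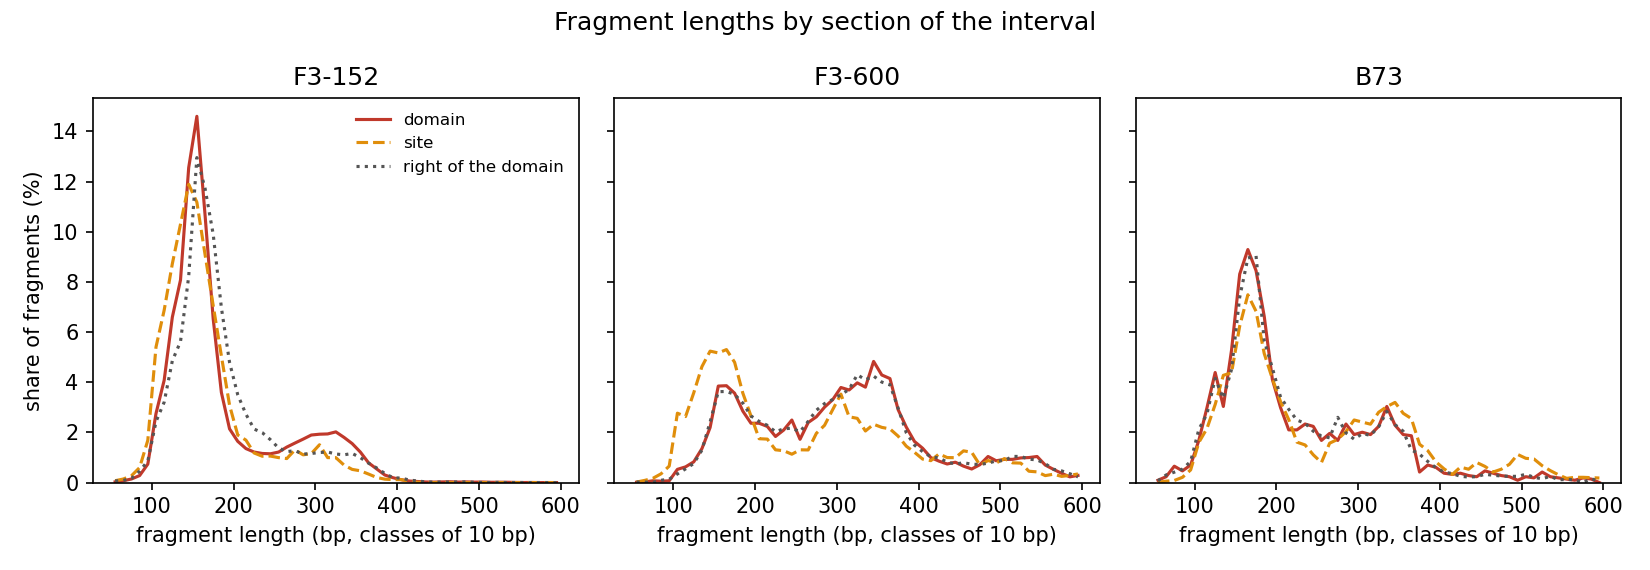
Share of fragments in classes of 10 bp of length, in percent, for F3-152, F3-600 and B73, in the domain (solid), in the narrow site (dashed) and right of the domain (dotted). In F3-152 the domain has more fragments of at most 150 bp than its right flank, 37.0% against 27.3%, while domain and right flank nearly coincide in F3-600 and B73.

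The share of short fragments was raised along the whole domain in F3-152. It was higher in the domain's bins above the threshold than in those below it, but was not highest where the level was highest. In F3-152 the share of fragments of at most 150 bp was 35.3% in the left shoulder, 35.4% in the high block, 37.4% in the plateau and 35.6% in the right shoulder, so the high block was below the plateau. Over the 31 bins of the left shoulder outside the called domain it was 33.4% (32.2% to 34.6%), and over the 4 such bins of the right shoulder it was 33.8% (31.0% to 36.7%). The bins of the domain below the threshold had 35.1% (34.2% to 35.9%) and those above it 37.2% (36.9% to 37.5%), against 27.6% (27.4% to 27.9%) in the other 1512 bins of the interval, which leaves out the domain, its shoulders and the enriched bins. In the enriched bins of the comparison domains of F3-152 the share was 39.5% on chromosome 5 and 39.2% on chromosome 10, a little above the domain on chromosome 1. In F3-600 those comparison domains were at 11.8% and 11.1%, against 6.28% over the F3-152 domain on chromosome 1 and 6.57% in the other bins of the interval. In B73 the comparison domains were at 16.8% and 15.9%, lower than the 19.5% of the other bins of the interval, so the direction of the shift was not the same in each library.

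At the site, fragments of at most 150 bp made up 47.5% in F3-152 (46.7% to 48.2%), 20.7% in F3-600 (20.2% to 21.3%) and 17% in B73 (16.1% to 17.8%). This was above the flanks in F3-152 and F3-600 and below them in B73, where the flank left of the site had 20.1% (19.4% to 20.9%). The median length at the site was 152 bp in F3-152, 259 bp in F3-600 and 212 bp in B73.

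Distances between fragment midpoints gave only a weak sign of regular spacing in the domain. In F3-152 pairs of midpoints were most frequent, in the range of 120 to 240 bp, at a distance of 175 bp, with 1.03 times as many pairs as in the trough at 132 bp. Right of the domain the peak of F3-152 was also at 175 bp, with a ratio of 1.04, so the spacing did not set the domain apart from this flank. Between site and domain the peak of F3-152 was at 133 bp with a ratio of 1.01, and left of the site none was found. In F3-600 the peak lay at 172 bp with a ratio of 1.13 and in B73 at 178 bp with 1.77, but these rest on 936 and 99 pairs within 10 bp of the peak, against 280010 in F3-152. The ratios were therefore not compared between libraries. At the site no peak was found, because the number of pairs fell through this range in all 3 libraries.

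The flanks of the domain were not level with each other in F3-152. Over windows of 1 Mb, the 10 windows from 130 to 140 Mb had medians from 1.79 to 2.16 in F3-152, and the 5 windows from 142 to 147 Mb had medians from 1.33 to 1.62, so that both ranges were apart. In F3-600 the same ranges were 1.53 to 2.07 on the left and 1.46 to 1.72 on the right, and in B73 1.09 to 1.72 and 1.08 to 1.28, which overlap in both. The ratio of F3-152 to F3-600 of these medians was 1.04 to 1.2 on the left and 0.821 to 1.05 on the right. Elsewhere on the chromosome, in windows of 5 Mb, this ratio ran from 0.553 (window from 200 Mb) to 1.63 (window from 95 Mb). A difference of this size was therefore not particular to the flanks of the domain. In single bins, F3-152 was above F3-600 in 647 of 952 left of 140 Mb (68.0%) and in 185 of 477 right of 142.2 Mb (38.8%), with median ratios of 1.12 and 0.896. F3-600 and B73 kept their order, with F3-600 above B73 in 73.5% of the left bins and 76.7% of the right bins.

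**Figure D5:**
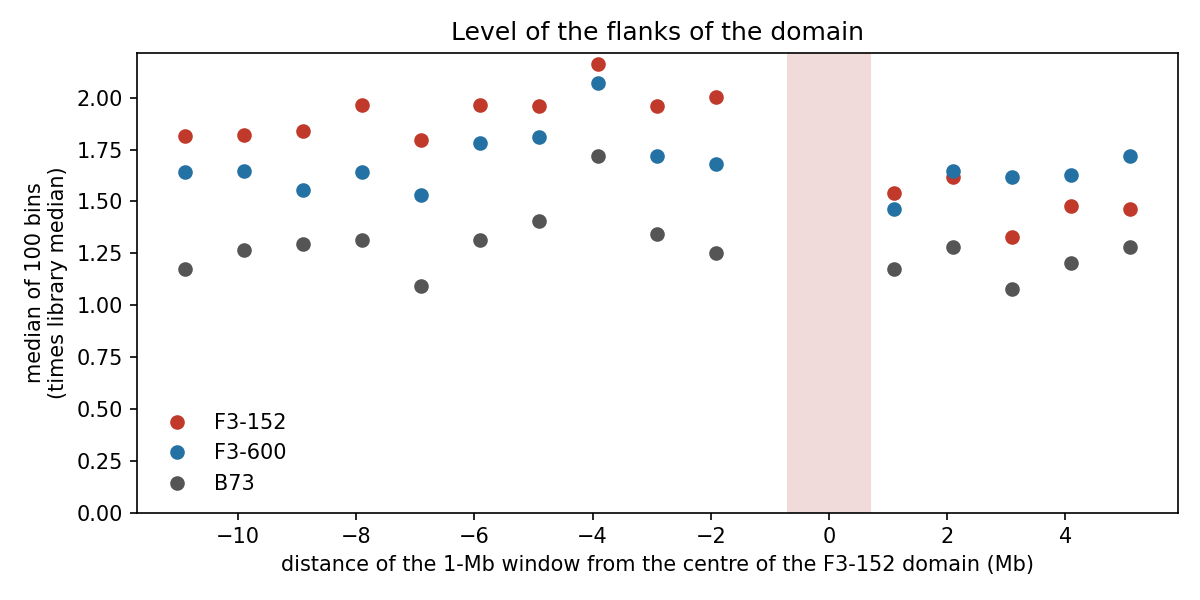
Median level of the 100 bins in each window of 1 Mb, in times the median of each library, against the distance of the window's centre from the centre of the F3-152 domain in Mb, for F3-152 (red), F3-600 (blue) and B73 (grey). The shaded band is the domain, and the 2 windows that hold most of it are left out. F3-152 lies between 1.79 and 2.16 left of the domain and between 1.33 and 1.62 right of it.

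Past the domain, F3-152 came down over a few windows and then varied. In windows of 100 kb its median was 7.20 from 142000001, 3.46 and 2.43 in the next 2 windows and 0.633 from 142300001, where F3-600 had 1.15 and B73 0.703. In the window from 142400001 it was 1.95 in F3-152, 1.63 in F3-600 and 1.45 in B73. No bin right of the domain was enriched in any of the 3 libraries.

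Some bins gave no reads. In all 3 libraries 49 of the 1700 bins, or 2.88%, were empty, in 12 runs, and the counts per library were 51 in F3-152, 51 in F3-600 and 57 in B73. The longest runs were 120 kb from 139770001 to 139890000, between site and domain, and 90 kb from 134290001 to 134380000, which ended 10 kb before the high bin that starts at 134390001. A count of 0 does not show that CENH3 is absent. The 3 reads to which lower counts were set in the ratios correspond to a level of 0.0333 in F3-152, 0.0469 in F3-600 and 0.0938 in B73. Since 49 of these bins were empty in every library, CENH3 there was not measured.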

How the data were processed

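In 3 anti-CENH3 ChIP-seq libraries of young maize leaves, nuclei had been digested with micrococcal nuclease. By the submitters' processing notes the reads went through CASAVA and BWA on B73 RefGen_v4. For B73, the study's methods add that uniquely mapped reads of high mapping quality were kept. Each line of the deposited tables is an aligned read with position, strand and a mapping quality, a score from 20 to 60 that is not normalized. Whether duplicates were removed is not given in the sources used here.

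Bins of 10 kb on chromosomes 1 to 10 were filled with reads by their midpoints. Enriched bins (10 times the library's median or more) up to 500 kb apart were merged into domains. Fragments were counted once per read pair, at the read listed first. Lengths were taken between the outer ends of mates on opposite strands, up to 1000 bp. Poisson and binomial intervals were exact, at 95%. They cover counting error only and treat duplicates as independent. The self-tests used simulated domains and spacings. The interval, its sections and the regions named were chosen with earlier results of these data known. Regions named were the sections, all bins of the site, the first, last and 5 highest enriched bins of the domain, its longest runs and each enriched bin elsewhere. As alternatives, bins of 50 kb, thresholds of 5 and 20, merging over 100 and 1000 kb, mapping quality of at least 30, 1 read per start, end and strand, fragments, scaling to the mean bin and, for the domain's level and chosen after seeing the data, leaving out its high block were run. A genome sequence and gene annotation of this build were not used here, so genes and sequences are not given. Scripts ran in Python 3.11.15 with SciPy 1.17.1, NumPy 2.4.6, pandas 2.3.3 and Matplotlib 3.10.9.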

Additional observations from a re-analysis of the deposited data

How the results depend on the processing

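The 29 results were recomputed to give 98 alternative values. Of these 60 lay inside the counting interval around the reported one, or inside a factor of 1.5 for bin counts and the span, and 38 lay outside. The span of 1.39 Mb was never moved by more than 1.5 times, and ran from 1.04 Mb at 20 times the median to 1.66 Mb at 5 times. Counting intervals are narrow at this depth, so small shifts count as moves, and their cause was not tested except where a setting only removes reads or bins. B73 has the fewest reads and the widest intervals. No paired analysis was possible because each line had 1 library.

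Enriched bins in the interval numbered 63 in F3-152 and 6 in B73 at 20 times the median, 20 in F3-600 at 5 times, 6 in B73 with mapping quality kept at 30 or more, and 4 bins of 50 kb each in F3-600 and B73. In the order F3-152, F3-600 and B73, the level of the domain was 19.1 and 1.66 (F3-152 and F3-600 only) with mapping quality kept at 30 or more, 15.6 (F3-152) and 1.18 (B73) with 1 read per start, end and strand, 17.9 (F3-152) and 1.45 (B73) over fragments, and 16.3, 1.5 and 1.1 scaled to the mean. Without the high block it was 15.8 in F3-152, an alternative chosen after seeing the data. The level of the site was 17.3, 29.9 and 23.8 with mapping quality kept at 30 or more, 15.4, 27.8 and 29.0 with 1 read per start, end and strand, 32.4, 58.7 and 57.7 over fragments, and 28.5, 51.9 and 43.1 scaled to the mean. The site stayed lowest in F3-152 under each of these, with 0.550 to 0.578 times F3-600 and 0.532 to 0.726 times B73, whereas F3-600 moved between 0.960 and 1.26 times B73, on both sides of 1. For the share of the library in the interval, the main setting here was over reads, with 2.48%, 1.54% and 1.24%. This share was 1.42% (F3-600) and 1.10% (B73) with mapping quality kept at 30 or more, and 2.27%, 1.40% and 1.12% with 1 read per start, end and strand. Over fragments, as given in the results, it was 1.55% (F3-600) and 1.35% (B73). With both mates at 30 or more, the median fragment length was 149 bp in F3-152 and 277 bp in F3-600 at the site and 304 bp in F3-600 left of it.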
